A study of Mus musculus with 16 samples.

Results

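Notch is a signalling pathway between touching cells, and 10 of its genes were followed here in mouse tail tendon fascicles, the thin collagen strands that can be drawn from the tail. They are the 4 receptors Notch1, Notch2, Notch3 and Notch4, the 3 ligands Dll4, Jag1 and Jag2, and the 3 target genes Hes1, Hey1 and Heyl. They were chosen by name from the 25719 genes counted, without regard to their level in a library, although results of these data were known when the names were chosen. RNA was sequenced from 8 wild type libraries and from 8 knockout libraries of the genotype ScxCre;Vhlf/f. In the knockout, Cre recombinase driven by Scx, a transcription factor gene of tendon cells, removes the floxed part of Vhl from Scx-lineage cells. The VHL protein belongs to a ubiquitin ligase and marks the hypoxia-inducible factor HIF1α for breakdown. The series asks how HIF1α acts in overloaded and diseased tendon and whether vessel recruitment is needed. Per the labels no cell type was sorted, and a library averages over whatever cells the strands held. Age and sex of the mice, and whether wild type mice carried floxed alleles or the driver, are not given in the sources used here. Transcripts of Y-linked genes are described below. Nor do the labels say that libraries of 1 genotype came from separate animals, so p-values measure the spread between these libraries.

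When a Delta-like or Jagged ligand on one cell binds a Notch receptor on its neighbour, an ADAM protease and then the γ-secretase complex cut the receptor. The freed intracellular domain enters the nucleus, joins the DNA-binding protein RBPJ and a Mastermind-like coactivator, and switches on genes of the Hes and Hey families, which encode repressors. In blood vessels, Dll4, Notch1 and Notch4 are known from endothelial cells, and Notch3 and Heyl from the pericytes and smooth muscle cells that wrap the vessel, together called mural cells. HIF1α is known to bind DNA at the letters ACGTG or GCGTG, and RBPJ at TGGGAA.

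Upstream windows of 250 bases, ending at the base before the RefSeq gene start, were found for 7 of the 10 genes (all but Hes1, Hey1 and Heyl). Those of the receptors and ligands with the largest increases are printed, with that of Notch2, the receptor that was lower in the knockout. They are from RefSeq on GRCm38.p6, written 5′ to 3′ on the strand of the gene, with every match to ACGTG or GCGTG on either strand in capitals, so that a match on the other strand reads CACGT or CACGC. The windows are chr17:32166891-32167140 (minus strand) for Notch3, chr17:34564045-34564294 (plus) for Notch4, chr2:119325534-119325783 (plus) for Dll4, chr12:112929496-112929745 (minus) for Jag2 and chr3:98013288-98013537 (plus) for Notch2.
Notch3: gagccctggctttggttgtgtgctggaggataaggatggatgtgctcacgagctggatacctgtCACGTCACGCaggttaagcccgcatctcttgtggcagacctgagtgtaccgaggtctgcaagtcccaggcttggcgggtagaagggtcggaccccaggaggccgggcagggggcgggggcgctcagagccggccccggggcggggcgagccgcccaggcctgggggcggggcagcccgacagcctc
Notch4: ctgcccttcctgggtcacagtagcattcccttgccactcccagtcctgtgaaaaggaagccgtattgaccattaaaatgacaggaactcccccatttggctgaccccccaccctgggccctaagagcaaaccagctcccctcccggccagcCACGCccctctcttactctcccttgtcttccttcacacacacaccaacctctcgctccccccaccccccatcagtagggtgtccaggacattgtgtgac
Dll4: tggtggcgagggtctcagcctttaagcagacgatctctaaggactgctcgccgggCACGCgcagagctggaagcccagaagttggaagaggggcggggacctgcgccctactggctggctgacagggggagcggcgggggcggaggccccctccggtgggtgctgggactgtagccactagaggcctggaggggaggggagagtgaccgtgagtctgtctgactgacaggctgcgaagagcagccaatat
Jag2: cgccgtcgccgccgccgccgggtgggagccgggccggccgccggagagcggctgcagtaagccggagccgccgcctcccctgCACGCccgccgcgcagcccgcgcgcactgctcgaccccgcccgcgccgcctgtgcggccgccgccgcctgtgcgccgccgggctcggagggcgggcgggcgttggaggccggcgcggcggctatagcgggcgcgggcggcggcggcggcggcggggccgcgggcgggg
Notch2: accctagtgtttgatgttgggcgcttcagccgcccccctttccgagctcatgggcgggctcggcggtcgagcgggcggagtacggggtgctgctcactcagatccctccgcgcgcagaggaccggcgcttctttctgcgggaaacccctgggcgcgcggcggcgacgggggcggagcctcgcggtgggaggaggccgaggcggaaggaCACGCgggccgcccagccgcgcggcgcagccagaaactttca
At least 1 of these pentamers was found in 6 of the 7 windows, against 38.6% of 32851 mouse windows of the same length. GCGTG was present in the windows of Notch2, Notch3, Notch4, Dll4, Jag1 and Jag2, against 28.2% of all windows. Notch3 alone among the 7 held ACGTG, directly followed by a GCGTG match, from 186 to 177 bases before the RefSeq start. For Notch3 alone the bases after the window were not matched in the GENCODE M21 transcripts, so this distance holds only for the RefSeq start. All windows counted, ACGTG was found in 16.6%. In Dll4 the match began 195 bases before the start, in Jag2 168, in Notch4 99 and in Notch2 42. The Notch1 window held neither pentamer. TGGGAA was found in none of the 7 windows and in 21.6% of all windows. The 7 windows were 57.2% to 87.2% G and C, and the windows they are set against were not matched for this. Since ACGTG and GCGTG both hold the letters CG, no excess or lack of a motif can be read from these shares. A match of letters is a description of the sequence and not a binding site, and the window of Notch2, which was lower, held one as well.

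Wild type libraries held 10792900 to 16379401 counts and knockout libraries 10488355 to 18753254, so the floor of detection, set at 3 counts, lay between 0.160 and 0.286 CPM, the count normalised for library size with TMM factors. Vhl, the deleted gene, was at 14.1 to 25.8 CPM in wild type and 7.51 to 10.9 CPM in knockout libraries, so none went against its label (log2 fold change of -1.13 with an SE of 0.113, edgeR adjusted p = 9.64e-08). The 4 Y-linked genes checked summed to about 202 CPM or more in wild type libraries 7 and 8 and knockout libraries 1 and 6. In the others their sum was at most 0.0494 CPM, so both genotypes held libraries with and without male tissue. The 9 tenocyte markers summed to 130878 to 380895 CPM in the wild type and 77587 to 181187 CPM in the knockout, with 6 of the 9 lower and 1 higher. Markers of other cell types were present and uneven. The 19 endothelial markers summed to 54.8 to 81.2 CPM in the wild type and 99.1 to 921 CPM in the knockout, with 12 of 14 tested markers higher and none of the 19 at 0 in all libraries of a genotype. Of these 12, Robo4 had at most 2 counts in a wild type library and could be tested only through the knockout. The same nearly held for Plvap, with at most 10 counts, so both add no support to the count of higher markers. The 12 mural markers summed to 357 to 474 CPM and 332 to 1485 CPM, with 5 of 8 tested markers higher and 1 lower. The 14 skeletal muscle markers summed to 58.0 to 5447 CPM in the wild type, to 202 to 1599 CPM in knockout libraries 1 to 5 and to 8670 to 11540 CPM in knockout libraries 6, 7 and 8. The 6 erythroid markers summed to 15.1 to 50.7 CPM and 77.3 to 560 CPM, with all 5 tested markers higher, and of the macrophage markers 3 of 8 were higher. For these counts of markers, the shares over all tested genes were 25.6% higher and 22.7% lower. Of the 8 keratinocyte markers, Krt1 and Krt15 were at 0 in all 16 libraries, and 3 of the 4 tested were lower in the knockout. Among these, the desmosome gene Dsp was at 24.2 ± 8.62 CPM in wild type and 12.0 ± 1.93 CPM in knockout libraries (SD, n = 8). Knockout libraries 6, 7 and 8 therefore stand apart by their muscle transcripts and also have the 3 highest endothelial sums, and results are given with and without them where they differ. Beyond the endothelial, mural and muscle scores, the part of these markers in the results was not tested.

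Of the 10 genes, 9 passed the filter on low counts, and 7 of these were higher in the knockout, 1 was lower and 1 did not pass the test. Notch1, Notch3, Notch4, Jag1, Jag2, Hey1 and Heyl rose, Notch2 fell, and Hes1 had an adjusted p of 0.0538. The test was edgeR's quasi-likelihood test with Benjamini-Hochberg adjustment over 14803 genes, with an adjusted p under 0.05 as the threshold. Among all tested genes 25.6% were higher and 22.7% lower. In 5 of the 9 (Notch3, Notch4, Jag1, Hey1 and Heyl) every knockout library exceeded every wild type library, which held for 10.8% of all tested genes. The filter asked for about 10 counts at median depth in 8 libraries. Heyl, with at most 8 counts in a wild type library, could pass it only through the knockout. Its separation was therefore fixed once it was tested, and that of Hey1, with at most 10 counts, nearly so. The direction and call of these 2 genes lean on the same filter. They are counted among the 7 higher genes, among the 5 and in the median below, and add no support there. Without knockout libraries 6, 7 and 8 the same 7 genes were higher and Notch2 lost its call, and scaled to total counts the same held. The median log2 fold change, knockout minus wild type, was 2.40 over the 9 genes and 0.02 over all tested genes. Dll4, with at most 4 counts in a wild type library, did not pass the filter and is described from its counts.

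**Figure D1:**
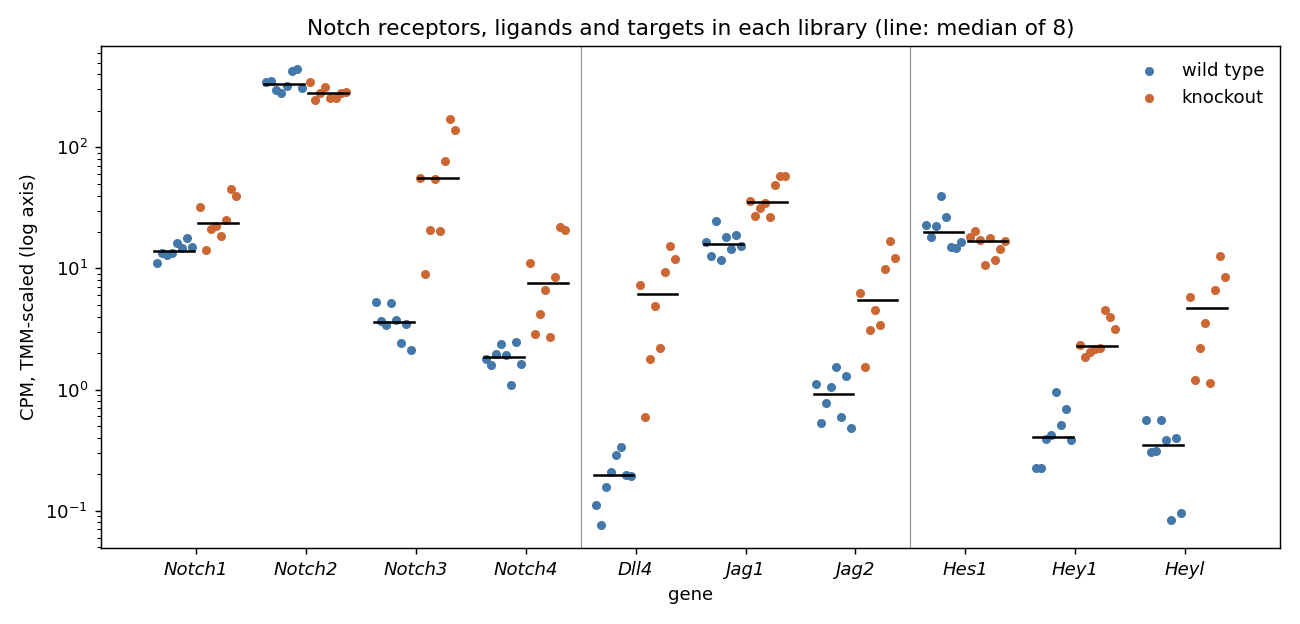
Level of each of the 10 genes in each library, in CPM with TMM-scaled library sizes on a log axis; points are libraries, blue for wild type and orange for knockout, and black lines are medians of 8. Notch3, Notch4, Dll4, Jag1, Hey1 and Heyl have no overlap between the genotypes, while Notch2 and Hes1 overlap and have lower medians in the knockout, with the direction of Notch2 lost under total counts and Hes1 not past the test.

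Among the receptors, Notch3 changed most. In the wild type it ran from 2.12 CPM through a median of 3.59 to 5.27 CPM. In the knockout it was at 55.5, 8.93, 20.8, 55.2, 20.4, 76.9, 172 and 139 CPM in libraries 1 to 8. Every knockout library was above every wild type library, but the knockout spread over a wide range, with library 2 nearest to the wild type and libraries 7 and 8 highest. Means were 3.68 ± 1.13 CPM for the wild type and 68.6 ± 58.9 CPM for the knockout (SD, n = 8), an 18.6-fold difference (log2 fold change 4.22, SE 0.59, edgeR adjusted p = 2.79e-05). Without knockout libraries 6, 7 and 8 the log2 fold change was 3.12 (SE 0.41, edgeR adjusted p = 3.80e-05). In bulk tissue, fewer or more cells of a type and less or more RNA per cell cannot be told apart, which holds for each gene below. Exons of Notch3 on chromosome 17 overlap those of an antisense gene, Gm17276, and whether counting used strand is not given in the sources used here, so a part of these reads could belong to that gene.

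Notch4, a receptor known mainly from endothelium and also encoded on chromosome 17, rose as well. Its wild type libraries lay between 1.10 and 2.49 CPM with a median of 1.86 CPM. The knockout libraries 1 to 8 were at 11.0, 2.89, 4.19, 6.59, 2.72, 8.52, 21.9 and 20.7 CPM. No library overlapped between the genotypes, and libraries 2 and 5 of the knockout came closest to the wild type. The change was 5.28-fold (log2 fold change 2.40, SE 0.44, edgeR adjusted p = 0.000272). Without knockout libraries 6, 7 and 8 it was smaller, at a log2 fold change of 1.54 (SE 0.31, edgeR adjusted p = 0.000638).

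Notch1, the best-studied receptor of the family, was at 11.1 to 17.8 CPM in the wild type, with a median of 14.0 CPM. In knockout libraries 1 to 8 it was at 32.3, 14.1, 21.3, 22.4, 18.7, 25.3, 45.6 and 39.6 CPM. Knockout library 2 lay within the wild type range and the other 7 lay above it. The gene rose 1.92-fold (log2 fold change 0.94, SE 0.20, edgeR adjusted p = 0.000884), and without knockout libraries 6, 7 and 8 the log2 fold change was 0.60 (SE 0.16, adjusted p = 0.00526). Its exons on chromosome 2 overlap those of 0610009E02Rik and Gm13568 on the other strand.

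Notch2 was the most abundant receptor and the only tested gene of the 10 that was called lower. It ran from 282 CPM through a median of 333 to 445 CPM in the wild type, and from 246 CPM through 280.5 to 346 CPM in the knockout. The ranges overlapped in part, with 5 of the 8 knockout libraries below every wild type library. The log2 fold change was -0.30 (SE 0.10, edgeR adjusted p = 0.0202), that is a level 0.815 times that of the wild type. Scaled to total counts, which moves the median of all tested genes from 0.02 to 0.32, the direction of Notch2 was lost (0.01, adjusted p = 0.906), and without knockout libraries 6, 7 and 8 the call was lost (-0.28, adjusted p = 0.0832). On chromosome 3 its exons share 541 bases with Gm42820, which was counted as a gene of its own on the same strand, so reads there could have been split between them.

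Because levels between genes can be compared only per length, CPM were divided by the exon length in GENCODE M21 in kilobases. Of the summed CPM per kilobase of the 4 receptors, Notch2 made up 94.9% ± 0.929 in wild type and 72.6% ± 15.1 in knockout libraries (SD, n = 8). Notch3 made up 1.39% ± 0.535 of the wild type sum and 19.6% ± 13.0 of the knockout sum. The share of Notch3 in single knockout libraries ran from 4.37% to 40.0%, and no wild type library exceeded 2.31%. Notch1 made up 3.00% ± 0.471 and 4.95% ± 0.716, and Notch4 0.698% ± 0.206 and 2.86% ± 1.58. So the receptor transcripts of the wild type strands were nearly all Notch2, and in the knockout Notch3 was second, with Notch2 still in the lead in every library. These shares were not tested on their own, since the tests of the genes stand above.

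**Figure D2:**
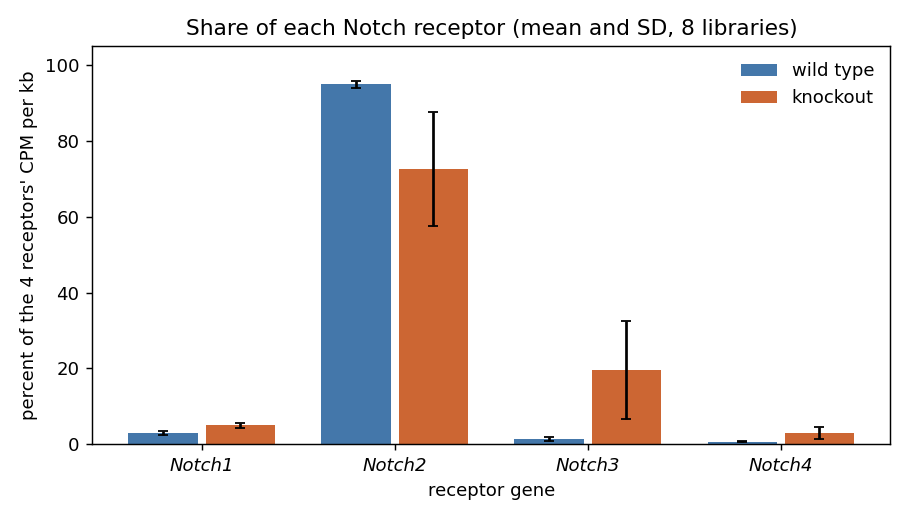
Share of each receptor gene in the summed CPM per kilobase of the 4 receptors, in percent; bars are means of 8 libraries (blue wild type, orange knockout) and error bars are SD. Notch2 goes from 94.9% to 72.6% and Notch3 from 1.39% to 19.6%.

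Of the ligands, Dll4 is the one best known from sprouting vessels, where it is made by the leading tip cell. It had 1 to 4 counts per wild type library, or 0.0756 to 0.337 CPM, which is at or about the floor. Knockout libraries 1 to 8 were at 7.37, 0.595, 1.79, 4.90, 2.22, 9.43, 15.2 and 12.1 CPM, from 7 counts in library 2 to 314 in library 7. All 8 lay above the highest wild type library. Summed over libraries there were 867 knockout and 18 wild type counts, a ratio of 36.7 after scaling by library size (exact Clopper-Pearson 95% interval 23.1 to 62.3, for counting error only). Without knockout libraries 6, 7 and 8 the ratio was 16.8 (exact 95% interval 10.4 to 28.8). With no filter on low counts the log2 fold change was 5.03 (edgeR adjusted p = 2.20e-05). Exons of Dll4 on chromosome 2 overlap those of Gm14207 on the other strand.

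Jag1, a ligand made by many tissues, was the most abundant of the 3 ligands per length. Wild type libraries held 11.7 to 24.7 CPM with a median of 15.9 CPM, and knockout libraries 26.4 to 58.1 CPM with a median of 35.1 CPM. The groups did not overlap, and the 3 highest knockout libraries were 6, 7 and 8. Jag1 rose 2.42-fold (log2 fold change 1.27, SE 0.19, edgeR adjusted p = 3.15e-05), or by 0.90 on the log2 scale without those 3 libraries (SE 0.15, adjusted p = 0.000117).

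Jag2, the other Jagged ligand, was at 0.483 to 1.54 CPM in the wild type with a median of 0.913 CPM. In knockout libraries 1 to 8 it was at 6.31, 1.53, 3.08, 4.58, 3.41, 9.94, 16.9 and 12.1 CPM. Knockout library 2 fell just below the highest wild type library and the other 7 were above all of them. The difference was 7.94-fold (log2 fold change 2.99, SE 0.46, edgeR adjusted p = 4.17e-05), and 2.04 on the log2 scale without knockout libraries 6, 7 and 8 (SE 0.32, adjusted p = 5.50e-05).

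The 3 target genes did not move as 1 group. Heyl, a repressor known from vascular smooth muscle and encoded on chromosome 4, was at 0.0844 to 0.561 CPM in the wild type, from 1 to 8 counts per library. Knockout libraries 1 to 8 were at 5.83, 1.19, 2.22, 3.54, 1.14, 6.59, 12.7 and 8.49 CPM. No library overlapped, which the filter fixed in advance for this gene, and libraries 2 and 5 were lowest, as for Notch4. The log2 fold change was 3.93 (SE 0.57, edgeR adjusted p = 1.99e-05). From summed counts, 671 against 31, the ratio was 16.5 (exact 95% interval 11.5 to 24.5), and 7.75 without knockout libraries 6, 7 and 8 (5.27 to 11.8). The log2 fold change without these 3 libraries was 2.99 (SE 0.45, adjusted p = 4.02e-05).

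Hey1, a target gene known from endothelium and encoded on chromosome 3, was at 0.224 to 0.960 CPM in the wild type with a median of 0.404 CPM. In knockout libraries 1 to 8 it was at 2.35, 1.87, 2.05, 2.17, 2.22, 4.51, 3.98 and 3.14 CPM. The groups did not overlap, which the filter nearly fixed in advance, and libraries 1 to 5 were nearly alike, unlike for Notch3 or Dll4. The change was 5.90-fold (log2 fold change 2.56, SE 0.28, edgeR adjusted p = 2.90e-07). Without knockout libraries 6, 7 and 8 the log2 fold change was 2.15 (SE 0.26, adjusted p = 4.02e-06).

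Hes1, a target gene active in many cell types and encoded on chromosome 16, was the most abundant target. Wild type libraries ran from 14.8 CPM through a median of 20.2 to 39.4 CPM, and knockout libraries from 10.8 CPM through 17.0 to 20.2 CPM. The ranges overlapped, and wild type library 4 was far above the other wild type libraries. The log2 fold change of -0.47 (SE 0.19) did not pass the threshold (edgeR adjusted p = 0.0538). Leaving out wild type library 4 moved it to -0.29. It passed without wild type library 6 (-0.53, adjusted p = 0.0315), 7 (-0.53, adjusted p = 0.0300) or 8 (-0.52, adjusted p = 0.0406), without knockout library 2 (-0.53, adjusted p = 0.0398), and with DESeq2's size factors (-0.48, adjusted p = 0.0480) or its Wald test (-0.48, DESeq2 adjusted p = 0.0270). At this spread, whether Hes1 is lower depended on single libraries, and no alternative gave a higher level in the knockout.

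Ordered by CPM per kilobase, the wild type levels were Notch2 (32.2 ± 5.57), Hes1 (10.8 ± 4.04), Jag1 (2.85 ± 0.716), Notch1 (1.01 ± 0.146), Notch3 (0.455 ± 0.140), Notch4 (0.230 ± 0.0550), Hey1 (0.146 ± 0.0758), Jag2 (0.132 ± 0.0555), Heyl (0.0659 ± 0.0353) and Dll4 (0.0510 ± 0.0223; SD, n = 8). The ranges of each of the first 4 were apart from the gene below, and from Notch3 downward those of neighbours overlapped. In the knockout Notch2 (26.3 ± 3.06) remained first and apart. Notch3 (8.48 ± 7.28), Hes1 (7.82 ± 1.62) and Jag1 (6.87 ± 2.24) followed with overlapping ranges. Jag1 was apart from Notch1 (1.93 ± 0.762), and below it Dll4 (1.74 ± 1.37), Notch4 (1.22 ± 0.947), Jag2 (1.04 ± 0.763), Heyl (1.02 ± 0.788) and Hey1 (0.853 ± 0.302) overlapped with their neighbours. Dll4 went from the last place to the sixth, and Notch3 from the fifth to the second.

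The increases were uneven over knockout libraries. For the genes called higher, Pearson r with the endothelial score was 0.872 to 0.982 within the knockout. After adjustment Notch3 and Jag2 alone passed the threshold, and by rank none did. The endothelial score, the mean log2 CPM of the 14 tested endothelial markers, was 0.88 to 1.75 in wild type libraries and 3.99, 2.11, 2.65, 4.06, 2.87, 4.96, 5.59 and 5.03 in knockout libraries 1 to 8. The 2 of its genes with the highest mean CPM in the knockout were Pecam1, an endothelial adhesion molecule at 0.253 to 2.02 CPM in wild type and 4.59 to 148 CPM in knockout libraries, and Ptprb, a vascular phosphatase at 0.983 to 6.24 CPM and 9.69 to 163 CPM. Tek, an angiopoietin receptor of the same list, did not pass (log2 fold change -0.08, edgeR adjusted p = 0.738). Nor did Esam (0.96, edgeR adjusted p = 0.0953), with 3 knockout libraries below every wild type library. Among knockout libraries, library 2 had the lowest score and library 7 the highest. The score did not overlap between the genotypes. It holds Robo4 and Plvap, tested only or nearly only through the knockout, so a part of this separation was fixed in advance. The mural score ran from 2.24 to 4.01 in wild type and from 3.85 to 6.92 in knockout libraries, and Rgs5, a pericyte gene, was at 0.151 to 19.6 CPM and 34.2 to 724 CPM. While 5 of the 8 tested mural markers were higher, Cspg4 was lower (log2 fold change -0.27, edgeR adjusted p = 0.0319). Pdgfrb (-0.20, adjusted p = 0.279) and Acta2 (0.66, adjusted p = 0.168) did not pass. None of the 10 Notch genes is part of a marker list.

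Within the 8 knockout libraries, Notch3 rose with the endothelial score (Pearson r = 0.982, exact permutation p = 9.92e-05, adjusted over all tested genes 0.0408; Spearman rho = 0.952, exact p = 0.00114, adjusted 0.0800). Jag2 did likewise (r = 0.978, exact permutation p = 0.000223, adjusted 0.0465; rho = 0.976, exact p = 0.000397, adjusted 0.0576). Without the 2 libraries farthest from the median score, 2 and 7, r was 0.969 for Notch3 and 0.959 for Jag2. An adjusted p under 0.05 with a positive r was reached by 0.594% of all tested genes. The r was 0.951 for Heyl (exact p = 0.000769, adjusted 0.0668), 0.941 for Jag1 (exact p = 0.00171, adjusted 0.0865), 0.916 for Notch4 (exact p = 0.00315, adjusted 0.109), 0.886 for Notch1 (exact p = 0.00501, adjusted 0.130) and 0.872 for Hey1 (exact p = 0.00640, adjusted 0.142). None of these 5 passed the threshold after adjustment. Notch2 (r = 0.298, exact p = 0.468) and Hes1 (r = -0.57, exact p = 0.148) had no such relation beyond the spread.

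With the mural score the same pair passed within the knockout, Notch3 at r = 0.983 (exact permutation p = 9.92e-05, adjusted 0.0350) and Jag2 at r = 0.979 (exact permutation p = 7.44e-05, adjusted 0.0315), against 0.777% of all tested genes with a positive r. Rank correlations were those given for the endothelial score, because the 8 libraries rank alike by both scores. Endothelial and mural markers therefore cannot be told apart in these libraries. Within the wild type no gene of the 9 passed after adjustment. The highest r there was that of Hey1 with the endothelial score, 0.875 (exact permutation p = 0.00469, adjusted 0.323; rho = 0.833, exact p = 0.0154), and 0.637 without wild type libraries 5 and 2. Notch3 had an r of -0.0014 with the endothelial score in the wild type. In all, 54 relations were computed (9 genes, 3 scores, 2 genotypes). With the muscle score, Jag1 alone passed within the knockout (exact permutation test, adjusted p = 0.0181), against 1.56% of all tested genes with a positive r. No Pearson r is given there, because the knockout libraries fell into separate clusters on that score. By rank, rho with the muscle score was 0.976 for Jag1 and Heyl, 0.952 for Notch3 and Notch4 and 0.929 for Notch1. It was 0.881 for Jag2 and 0.762 for Hey1, and by rank none of the 9 genes passed after adjustment. With the endothelial score rho was 0.905 for Jag1, Heyl and Notch1, and 0.857 for Notch4 and Hey1. It was 0.952 for Notch3 and 0.976 for Jag2. Libraries 6, 7 and 8 are the 3 highest on the endothelial, mural and muscle scores alike, and no relation is shown to be particular to vessel markers.

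**Figure D3:**
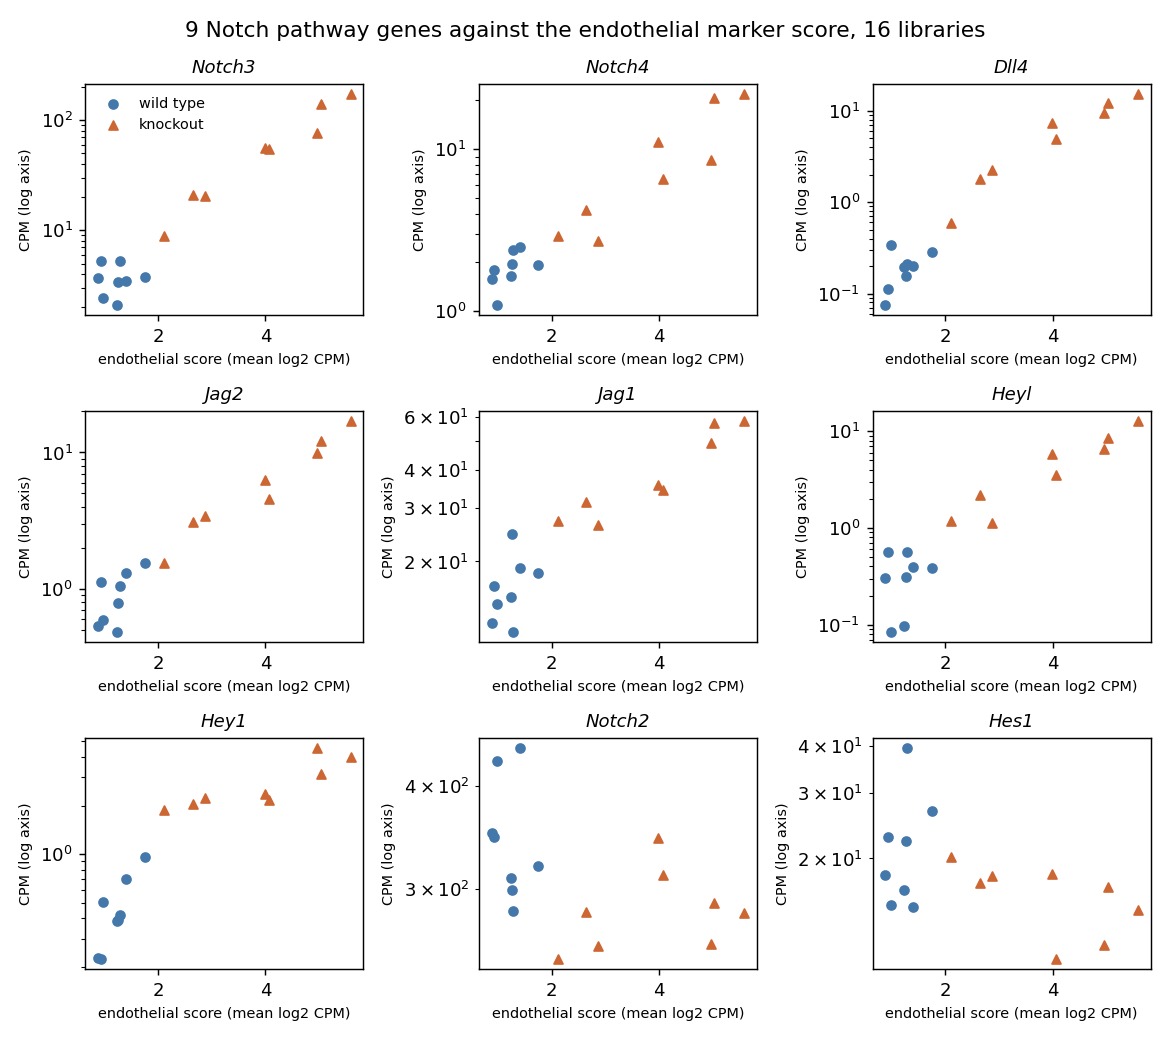
Level of 9 of the 10 genes (all but Notch1) in CPM on a log axis against the endothelial marker score (mean log2 CPM) in each library; blue circles are wild type and orange triangles knockout. Within the knockout the score runs from library 2 at 2.11 to library 7 at 5.59. Notch3 and Jag2 climb along it past the adjusted threshold. Notch4, Jag1, Heyl and Hey1 climb as well but fall short of that threshold, and Dll4 was not tested. Notch2 and Hes1 do not climb. Hey1, like Notch3, Notch4, Dll4, Jag1 and Heyl, is above the wild type in every knockout library. The scores of the genotypes do not overlap, so levels cannot be compared at a shared score.

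When the endothelial score was a term of the fit beside genotype, Hey1 alone of the 9 genes passed the threshold, with a log2 fold change of 1.50 (edgeR adjusted p = 0.00324). The fitted values of the others were 0.91 for Heyl (adjusted p = 0.162), 0.70 for Notch3 (0.132), 0.27 for Jag1 (0.388) and 0.24 for Jag2 (0.615), while Notch1 (-0.23, 0.447) and Notch4 (-0.29, 0.629) changed sign. Since the score does not overlap between genotypes, this fit extends a line beyond the libraries it rests on, and genotype and vessel signal cannot be told apart by it. With the muscle score as a term, whose range overlaps between genotypes, the 8 calls were kept and Hes1 was added (-0.54, adjusted p = 0.0373). There Notch3 was at 3.20, Notch4 at 1.57, Notch1 at 0.65, Jag1 at 0.97, Jag2 at 2.18, Hey1 at 2.18 and Heyl at 2.98.

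**Figure D4:**
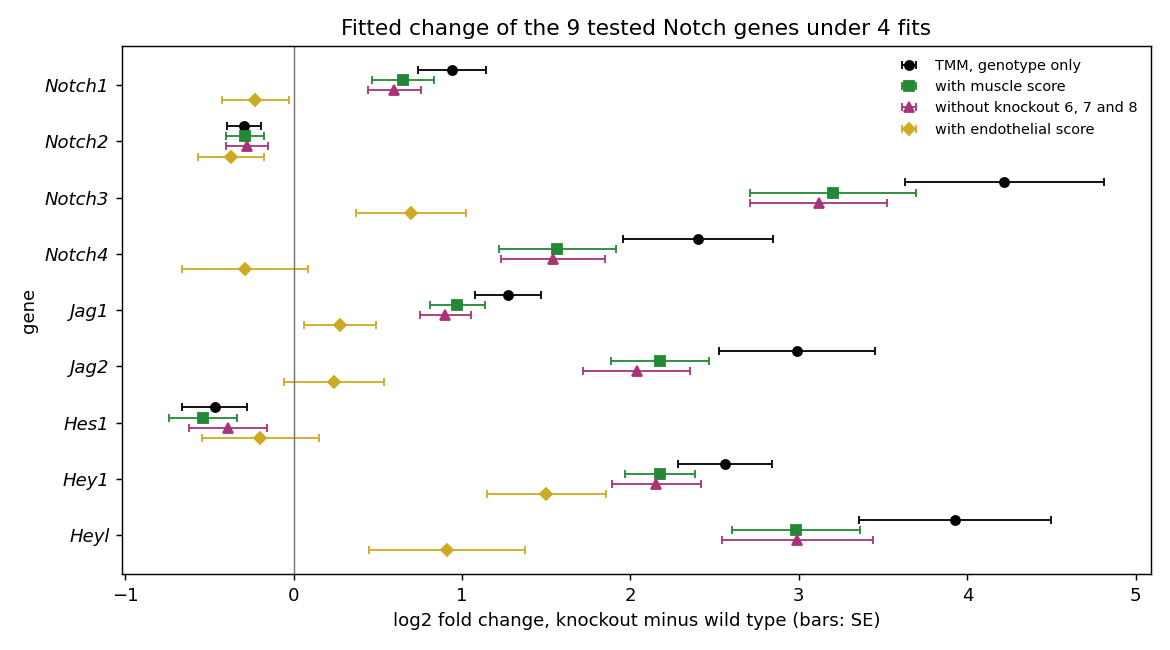
Log2 fold change, knockout minus wild type, of the 9 tested genes with its SE (bars) under 4 fits: genotype only, with the muscle score, without knockout libraries 6, 7 and 8, and with the endothelial score. Hey1 stays farthest to the right of 0 with the endothelial score, at 1.50, where Notch1 and Notch4 lie below 0. That fit cannot tell genotype and vessel signal apart.

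Genes that varied most like each of the 9 were sought by the Pearson correlation of log2 CPM after the genotype mean was removed, over 16 libraries, which share their depth and cell makeup. Nearest to Notch3 were Gm49337 (r = 0.968), Myh11 (0.963), the smooth muscle myosin, and Esam (0.950), an adhesion molecule of endothelium. Nearest to Heyl were Col7a1 (0.972), a collagen of anchoring fibrils, Notch3 itself (0.943) and Rasip1 (0.934), a gene of vessel lumen formation. For Notch4 they were Heyl (0.931), Col7a1 (0.931) and Aoc3 (0.920), an amine oxidase of vessel walls. For Jag2 they were Adgrg1 (0.948), Pcdh1 (0.940) and Ank1 (0.936). Notch1 was nearest to Ksr1 (0.936), Col4a1 (0.916), a basement membrane collagen, and Trp53i11 (0.915). Hey1 had other neighbours, namely Ndrg2 (0.913), Adssl1 (0.900), the muscle form of adenylosuccinate synthase, and Postn (0.891), a matrix protein. Near to Jag1 were Tspan15 (0.916) and Slc44a2 (0.915), and Hes1 was nearest to Nacad (0.912), Bhlhe40 (0.893) and Eef1akmt3 (0.885). Notch2 was nearest to Gm42820 (0.963), the gene that shares its exons, then to Mtmr3 (0.882) and Atg2a (0.869).

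Beyond these genes, 45 others of the pathway were listed by role, of which 34 passed the filter. Of the 34, 7 were higher, 11 lower and 16 did not pass the test, against 25.6% higher and 22.7% lower among all tested genes. Their median log2 fold change was -0.10. Every knockout library was above every wild type library for 4 of them (Lfng, Adam17, Rbpj and Hes6) and below for 4 (Pofut1, Mib1, Aph1c and Maml3), against 10.8% and 8.61% of all tested genes. Scaled to total counts the split was 17 higher and 4 lower, against 8270 higher and 1415 lower over all tested genes (3792 and 3359 with TMM), so small decreases among these genes depend on the scaling.

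Single genes of the nuclear complex went up or down, in numbers near the shares among all tested genes. Rbpj, the DNA-binding partner of the cut receptor, was at 141 to 158 CPM in the wild type and at 207 to 267 CPM in the knockout. All knockout libraries were higher, and those highest were libraries 1 and 5 rather than 6, 7 and 8 (log2 fold change 0.68, SE 0.0619, edgeR adjusted p = 2.28e-08). Maml3, a Mastermind-like coactivator, went the other way, from 32.6 to 46.3 CPM in the wild type to 11.4 to 20.6 CPM in the knockout (log2 fold change -1.25, SE 0.111, adjusted p = 1.84e-08). Maml1, a coactivator of the same family, rose by 0.43 (adjusted p = 0.000268), and Maml2 did not pass (-0.07, adjusted p = 0.610). In all, 2 of 10 genes of the complex and its partners were higher, 3 were lower and 5 did not pass, against 25.6% higher and 22.7% lower among all tested genes. Beside Maml3, the acetyltransferase Kat2b was among the lower ones (-0.40), and with total counts it lost the call (-0.09). With the endothelial score as a term, Rbpj and Maml3 kept their calls, but that fit cannot tell genotype and vessel signal apart.

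The Fringe enzymes add a sugar to the receptor and set which ligands it answers to, and their 3 genes did not move together. Lfng was at 1.97 to 5.46 CPM in the wild type and 6.04 to 10.5 CPM in the knockout, with no overlap (log2 fold change 1.21, SE 0.18, edgeR adjusted p = 1.15e-05). Mfng was at 0.288 to 1.39 CPM and 0.850 to 7.23 CPM (2.18, SE 0.43, adjusted p = 0.000409), and 1.27 without knockout libraries 6, 7 and 8. Rfng fell by 0.66 (SE 0.11, adjusted p = 7.77e-05). Pofut1, which adds the first sugar of that chain, was at -0.27 (adjusted p = 0.000805), and at 0.03 with total counts. Poglut1, which adds glucose, did not pass (-0.09).

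Among the remaining ligand genes only Dll1 passed the filter. It fell from 2.18 to 4.82 CPM in the wild type to 0.346 to 3.39 CPM in the knockout, with some overlap (log2 fold change -1.07, SE 0.32, edgeR adjusted p = 0.00989). The highest knockout libraries were 6, 7 and 8, and without them the log2 fold change was -1.81 (adjusted p = 0.000102). So Dll1 was lower while Dll4, Jag1 and Jag2 were higher. Of the ubiquitin ligases that act on ligands, Mib1 was lower in every knockout library (-0.43, adjusted p = 3.53e-06; -0.13 with total counts, where it lost the call), Neurl1a was higher (0.94, adjusted p = 0.00202; 0.47 without knockout libraries 6, 7 and 8), and Mib2 (-0.22) and Neurl1b (0.28) did not pass.

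Of the 9 protease genes, 1 was higher, 3 were lower and 5 did not pass, against 25.6% higher and 22.7% lower among all tested genes. Adam17, a membrane protease that can cut Notch, was at 53.3 to 67.0 CPM in the wild type and at 74.8 to 94.6 CPM in the knockout (log2 fold change 0.50, SE 0.0603, edgeR adjusted p = 1.02e-06), whereas Adam10, the main one for ligand-bound Notch, did not pass (-0.09, adjusted p = 0.212). The Aph1 genes encode a γ-secretase subunit, and all 3 were called lower, Aph1c at -0.71 (adjusted p = 0.000646), Aph1b at -0.23 (0.0323) and Aph1a at -0.22 (0.0159). With total counts only Aph1c kept this direction (-0.41), and Aph1a (0.09) and Aph1b (0.08) turned. Single libraries also decided Aph1b: its adjusted p was 0.0525 without wild type library 1, 0.0629 without 6, and 0.0609, 0.0615, 0.0620 and 0.0676 without knockout library 1, 3, 7 or 8. Psen2 (-0.18), Psenen (-0.02) and Ncstn (0.02), which encode γ-secretase subunits, did not pass.

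Numbl, an adaptor that holds Notch back, was at -0.18 (edgeR adjusted p = 0.0241). It lost the call without wild type library 1 (-0.15, adjusted p = 0.0532), without knockout libraries 6, 7 and 8 (-0.15, adjusted p = 0.116) and with the muscle score (-0.16, adjusted p = 0.0887) or the endothelial score (-0.09, adjusted p = 0.630) as a term, and its direction with total counts (0.12, adjusted p = 0.143). The other 3 tested negative regulators, Numb (0.06), Itch (-0.09) and Fbxw7 (-0.16), did not pass.
Nrarp, a feedback inhibitor that Notch itself switches on, did not pass the filter. It was at 0.0756 to 0.624 CPM in the wild type and at 5.18, 0.765, 0.940, 2.97, 1.68, 8.01, 12.6 and 7.05 CPM in knockout libraries 1 to 8. All knockout libraries were above the wild type, in nearly the order seen for Dll4, and summed counts were 656 against 25 (ratio 20.01, exact 95% interval 13.4 to 31.1). Without knockout libraries 6, 7 and 8 the ratio was 8.33 (exact 95% interval 5.43 to 13.3). Its exons overlap those of Gm38287 on the other strand. Among the remaining Hes and Hey genes, Hes6, which opposes Hes1, rose from 10.2 to 15.2 CPM in the wild type to 22.0 to 41.4 CPM in the knockout (log2 fold change 1.15, SE 0.13, adjusted p = 7.55e-07). Its highest knockout libraries were 4 and 5, and 6, 7 and 8 did not stand out. Hes2, Hes3, Hes5, Hes7 and Hey2 did not pass the filter, and none of them exceeded 1.53 CPM in a library.

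**Figure D5:**
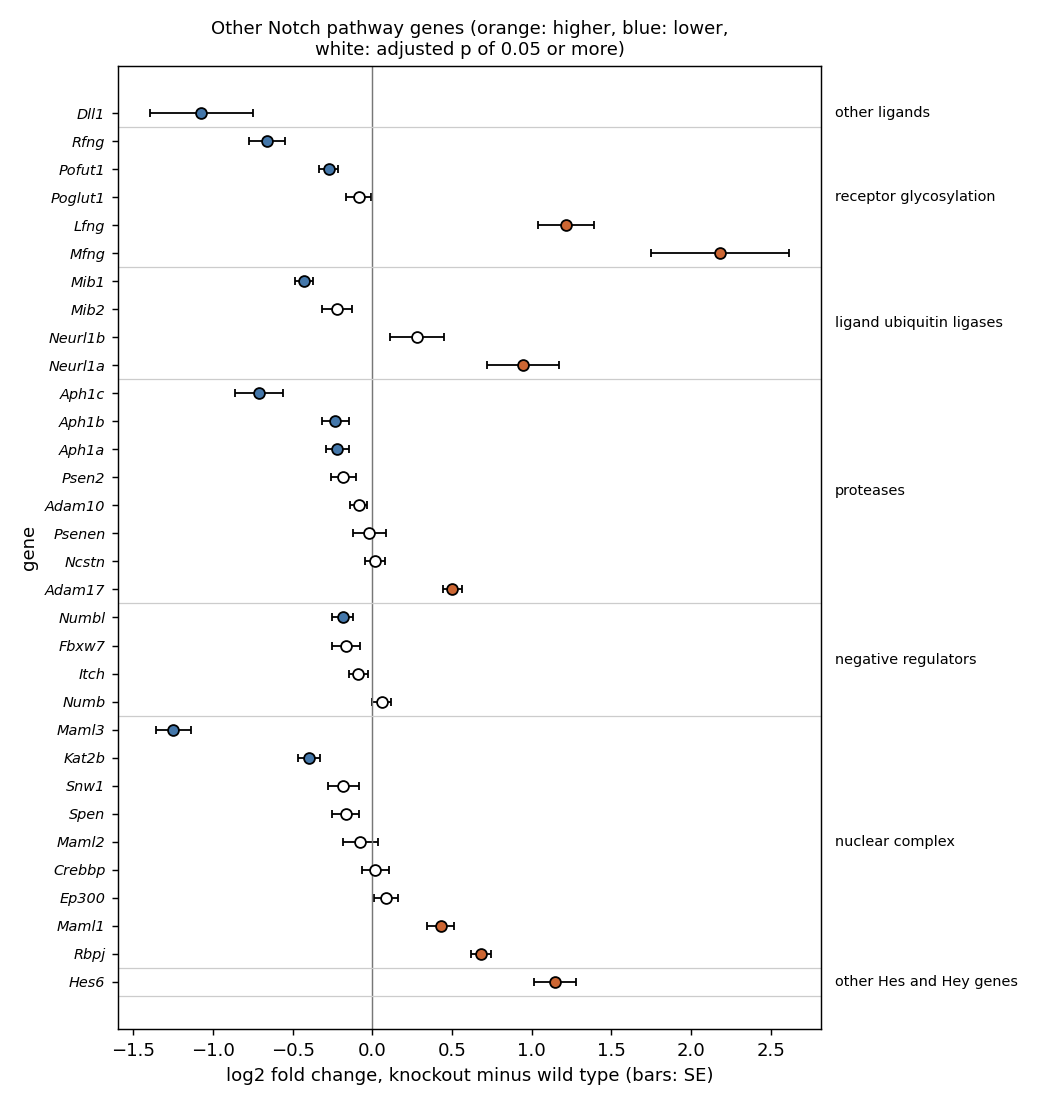
Log2 fold change, knockout minus wild type, with its SE (bars) of other tested pathway genes, grouped by role; orange points are higher, blue points lower and white points not past an adjusted p of 0.05. Mfng (2.18), Lfng (1.21) and Hes6 (1.15) lie farthest right and Maml3 (-1.25) and Dll1 (-1.07) farthest left; with total counts Pofut1, Aph1a, Aph1b and Numbl lie on the other side of 0.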

How the data were processed

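RNA of 16 libraries (8 wild type, 8 knockout, grouped by the genotype in their titles) was measured. Per the file headers and values, the deposited files hold raw counts for 25719 Ensembl genes. The submitters' processing notes name kallisto, featureCounts and GRCm39. Which program made the deposited counts, the annotation and the strand setting are not given in the sources used here. Symbols were matched for 25614 genes. Exon lengths, chromosomes and overlaps came from GENCODE M21 (GRCm38). No gene coordinates on GRCm39 are given.

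Counts were tested with edgeR 4.0.16 in R 4.3.3 (quasi-likelihood, robust, TMM, default filter, genotype only), two-sided, with Benjamini-Hochberg adjustment over 14803 genes. Log2 CPM used a prior count of 2. Alternatives used limma 3.58.1 and DESeq2 1.42.0. The code was checked on simulated data. Relations with marker scores were tested over all 40320 pairings of 8 libraries, for every tested gene. The smallest p this allows is 2.48e-05.

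Named were all 10 genes, Vhl, marker genes, tested pathway genes and the 3 nearest genes of each. Nrarp, Hey2 and the other genes under the filter were added after their values were seen. A few genes enter the counts without being named. Members and lists were chosen with earlier results of these data known. Depth limits genes with few counts, and intervals cover counting error only.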

Additional observations from a re-analysis of the deposited data

Results flagged for a closer look

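Of 90 groups of 8 libraries checked for a library far from the rest (the 10 Notch genes, the 34 tested other pathway genes and Vhl, each genotype alone), 2 were past the 95% limit of Dixon's test on the log2 scale, and chance alone gives about 4.5. Numbl, the adaptor that holds Notch back, was at 89.7 CPM in wild type library 1, the highest and farthest from the other 7. Crebbp, an acetyltransferase of the nuclear complex, was at 156 CPM in wild type library 8, the lowest. None of the 10 Notch genes had such a library, Hes1 in wild type library 4 included.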

How the results depend on the processing

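The count of 8 of the 10 genes was 7 to 10 in all alternatives but 1, and 8 to 10 when single libraries were left out. With the endothelial score as a term it was 1 (Hey1), with 10 other pathway genes (18 otherwise) and 4025 of all genes (7151 otherwise). In that fit Notch1 was at -0.23, Notch4 at -0.29, Mfng at -0.31 and Neurl1a at -0.24. With total counts Notch2 was at 0.014, Pofut1 at 0.029, Aph1a at 0.087, Aph1b at 0.077 and Numbl at 0.12. Other pathway genes past the threshold were 17 higher and 4 lower there, and 7 and 11 otherwise. Hey1, Rbpj, Maml3, Hes6, Adam17, Lfng, Rfng and Dll1 kept direction and call in all 28 alternatives. The fit with the endothelial score, 1 of these, cannot tell genotype and vessel signal apart. Dll4, called with no filter, was tested in 10 further settings, at 4.91 to 5.21. These are only the settings whose filter it passed: a mean count of at least 10, or leaving out a wild type library or knockout library 2. The fit without knockout libraries 6, 7 and 8 is not among them, and there its count ratio was 16.8 against 36.7. Dll4 is also part of each count above 8 with a single library left out. Leaving out knockout libraries 6, 7 and 8, and the level of Y-linked genes as a term, were alternatives chosen after seeing the data, and the latter kept the same 8 calls. With the replicate number as a block (replicate block) the same 8 of the 10 genes passed. The labels do not say that a number pairs libraries, and deviations of same-numbered libraries had r over 0.1 in 3 of 8 pairs (-0.397 to 0.394), with 2 of 16 libraries nearest to their own number. Depth limits Dll4, Heyl, Hey1 and Nrarp, which had 10 or fewer counts in each wild type library.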
